A study of Mus musculus with 9 samples.

Results

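The 10 genes described here drive or restrain entry into the cell cycle: the D-type cyclins Ccnd1, Ccnd2 and Ccnd3, cyclin E1 (Ccne1), the kinases Cdk4 and Cdk6, the growth regulators Mycn and Myc, and the inhibitors Cdkn1a and Cdkn1c. They were chosen by name, as growth genes linked to SHH and as cell cycle inhibitors, out of 21851 protein-coding genes of the GENCODE M21 annotation. For each gene, peaks of acetylated histone H3 lysine 27 (H3K27ac), a mark found at active promoters and enhancers, were collected from its span and 20 kb on either side. This gave 50 of 25096 peaks in wild-type (WT), 58 of 32085 in Shh-/- and 42 of 34641 in Shh-/-;Gli3-/- forelimb buds.

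Sonic hedgehog (SHH) is secreted from the posterior margin of the limb bud and is known for both patterning digits and sustaining growth of the mesenchyme. Without the ligand, GLI3 is processed to a transcriptional repressor, and with the ligand this processing is blocked. D-type cyclins bind CDK4 or CDK6 and phosphorylate the retinoblastoma protein, which frees E2F factors to switch on genes for DNA replication, cyclin E1 among them. The MYC family of E-box binding factors promotes growth, whereas p21 (Cdkn1a) and p57 (Cdkn1c) inhibit cyclin-dependent kinases.

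H3K27ac was profiled with MicroChIP-seq, a protocol for small cell numbers, in forelimb buds of E10.5 mouse embryos with 33 to 34 somites. Every immunoprecipitation used 1 pair of limb buds. The labels give the strain background as mixed, and per the study's methods the null alleles were kept on Swiss Webster. There were 9 libraries, made up of 2 H3K27ac replicates and 1 input for each genotype. WT embryos carried both genes. Shh-/- embryos were homozygous for the Shh tm1amc null allele, and Shh-/-;Gli3-/- embryos carried in addition 2 copies of the Gli3 Xt-J null allele. Both alleles are germline, so all tissues of the embryo and not only the limb lacked the gene, and WT embryos were littermates in at least the double mutant experiment. The labels' genotype entry reads wild type throughout, so groups were taken from the sample titles.

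Each genotype has 1 peak list with no values per replicate. The difference between genotypes therefore could not be set against the spread between embryos, no test was possible, and all comparisons here describe 3 lists. The lists covered 10.4 Mb in WT, 12.9 Mb in Shh-/- and 17.1 Mb in Shh-/-;Gli3-/-, and widths are therefore also given relative to these totals. All 8 markers of forelimb bud mesenchyme had a promoter peak in every list. Promoter peaks were found for 0 of 3 blood and 0 of 2 hindlimb markers in every list, and Fgf8, Trp63, Epcam and Sp8 of 5 ectoderm markers, Pax3 of 2 muscle precursor markers, and Kdr and Cdh5 of 3 endothelial markers had none either. The remaining ones had a promoter peak in 1 list, Dlx5 (250 bp) in Shh-/-, and Lbx1 (250 bp) and Pecam1 (350 bp) in Shh-/-;Gli3-/-. The part of other cell types in the widths below was not tested. The Shh gene had no peak in its 20 kb window in any list, and Gli3 had a promoter peak in all 3, so the deletions could not be checked from these lists.

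To ask whether promoters of the cell cycle genes were acetylated in each genotype, peaks were counted that touched a gene's own promoter, a window that began 2 kb before each coding transcript start and ended 1 kb after it. Of the 10 genes, 9 had such a peak in WT, 9 in Shh-/- and 9 in Shh-/-;Gli3-/-, against 44.3%, 48.3% and 46.3% of all protein-coding genes. Cdkn1a had none in any list. Promoter peaks of the 9 genes numbered 26 in WT, 31 in Shh-/- and 19 in Shh-/-;Gli3-/-, and their summed widths were 15.25, 14.15 and 24.25 kb. The double mutant list thus held fewer but wider peaks at these promoters. Its peaks were also wider over the whole list, with a median of 300 bp against 250 bp in each other list. In all it covered 1.66 times the length of the WT list, so the greater width was not particular to these promoters.

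**Figure D1:**
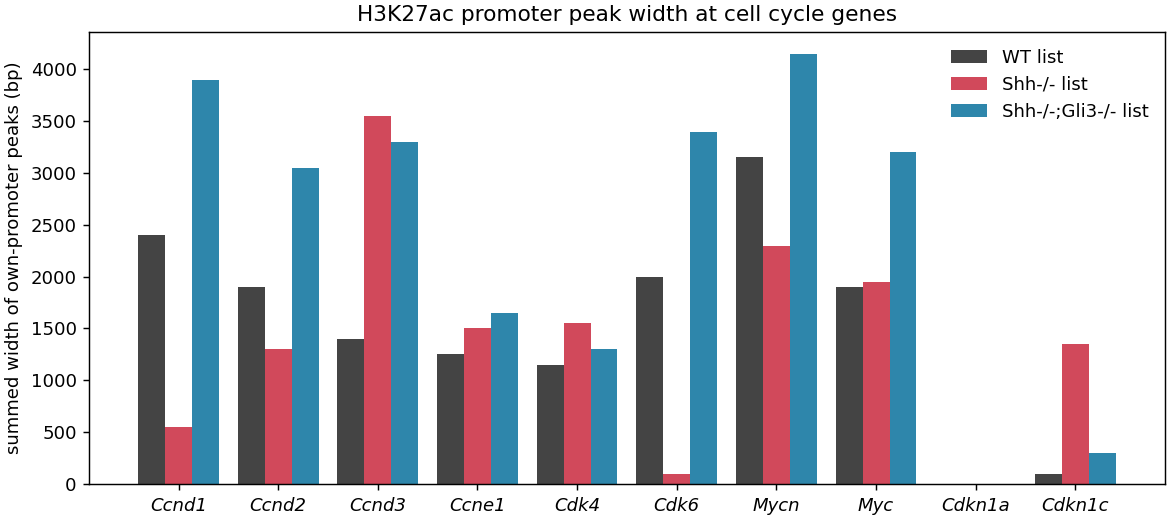
Bars give the summed width in bp of the peaks at each gene's own promoter in the WT, Shh-/- and Shh-/-;Gli3-/- lists, 1 value per list with no error. The Shh-/- bar is the shortest of the 3 at Cdk6 (100 bp), Ccnd1 (550 bp), Ccnd2 (1300 bp) and Mycn (2300 bp), and the tallest at Ccnd3 (3550 bp), Cdk4 (1550 bp) and Cdkn1c (1350 bp).

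Cdk6, which encodes a kinase partner of the D-type cyclins, showed the widest contrast. Its promoter peaks covered 2000 bp in WT, 100 bp in Shh-/- and 3400 bp in Shh-/-;Gli3-/- limb buds. In WT the main peak spanned chr5:3342950-3344449 (mm10) over both annotated coding starts of the gene, with a log2 fold over input of 3.83. Peaks of 300 and 200 bp lay upstream of it. In Shh-/- a single peak of 100 bp was called at chr5:3344150-3344249, with a log2 fold of 2.34 and an FDR of 0.154, so it does not pass the FDR of 0.05. In Shh-/-;Gli3-/- a single peak of 3400 bp, chr5:3341100-3344499, covered every base of the WT promoter peaks, at a log2 fold of 4.03.

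Ranks were also read within each list, whose lengths and lowest folds differ, so they are no measure of a change. Sorted by the caller's score, the strongest Cdk6 promoter peak stood at 14.3% from the top of the WT list, at 93.1% in Shh-/- and at 13.6% in Shh-/-;Gli3-/-. Among 9310 genes with a promoter peak in both the WT and the Shh-/- list, Cdk6 had the smallest ratio of widths, -4.32 on the log2 scale, and a further 365 genes with a WT promoter peak had none in Shh-/-. The neighbouring Fam133b promoter, inside the same 20 kb window, kept peaks of 750 bp in WT, 600 bp in Shh-/- and 900 bp in Shh-/-;Gli3-/-.

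The Cdk6 promoter is shown because it lay inside the WT and double mutant peaks and outside the Shh-/- one. The RefSeq promoter table (GRCm38.p6, the assembly of mm10) gives chr5:3343643-3343942 on the plus strand, 250 bases before to 50 after the start.
Cdk6 promoter: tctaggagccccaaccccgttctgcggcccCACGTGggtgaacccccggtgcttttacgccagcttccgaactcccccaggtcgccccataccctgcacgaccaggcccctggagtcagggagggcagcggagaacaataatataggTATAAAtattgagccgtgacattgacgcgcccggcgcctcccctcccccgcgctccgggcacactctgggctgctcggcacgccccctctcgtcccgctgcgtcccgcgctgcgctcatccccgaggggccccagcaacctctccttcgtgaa
Capitals mark an E-box (CACGTG), the palindrome bound by MYC and related factors, 220 bases before the start, and a TATAAA 103 bases before it. Of all 32851 promoter windows in the table, 7.15% hold the E-box letters and 13.6% TATAAA on either strand. The window has 66.7% G and C and 27 CG pairs, against medians of 52.7% and 7 over all windows.

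A second stretch, upstream of the Cdk6 coding starts, divided the lists in the same way. The WT peak chr5:3341200-3341599 was centred 2.49 kb before the nearest coding start and lay over the 5′ end of the annotated gene span, at 3341485. It counts as distal because promoter windows were drawn from coding starts only. The peak had a log2 fold of 3.10 and no overlapping peak in Shh-/-, whereas the Shh-/-;Gli3-/- promoter peak extended over it. Among WT distal peaks of these 10 genes that were overlapped in the double mutant and not in Shh-/-, it had the highest fold. The 300 bases around its position of largest fold, chr5:3341275-3341574 (GRCm38.p6, plus strand), contain 75% G and C and 32 CG pairs, and capitals mark an E-box.
Cdk6 upstream region: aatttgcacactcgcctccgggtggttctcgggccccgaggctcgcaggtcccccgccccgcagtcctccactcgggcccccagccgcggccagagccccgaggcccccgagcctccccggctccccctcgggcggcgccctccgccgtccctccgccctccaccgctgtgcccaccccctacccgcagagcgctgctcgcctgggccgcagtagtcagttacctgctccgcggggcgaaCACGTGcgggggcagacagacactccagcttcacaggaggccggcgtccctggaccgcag

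In the double mutant list Cdk6 had the longest distal acetylation of the 10 genes. Its span, chr5:3341485-3531008, is also the longest of the 10, so its window was the largest, and lengths were not divided by window size. Distal peaks, those touching no coding promoter, covered 700 bp in WT, of which 400 bp were the upstream peak above, 500 bp in Shh-/- and 3650 bp in Shh-/-;Gli3-/-. Within an intron, WT had 56.4 kb downstream of the nearest start a peak of 200 bp (log2 fold 2.64) and Shh-/- a pair of 250 bp each (2.82 and 2.67). A single peak of 2250 bp, chr5:3399000-3401249, spanned all of these in Shh-/-;Gli3-/-, with a log2 fold of 3.95. Peaks of 750 and 500 bp at 60.6 and 61.5 kb from the nearest start were called in the double mutant list only. Among double mutant distal peaks of these 10 genes without a counterpart in the other lists, the latter had the highest fold. The 300 bases around its position of largest fold are chr5:3405625-3405924 (GRCm38.p6, plus strand), with 48.7% G and C and none of the searched motifs.
Cdk6 intron region: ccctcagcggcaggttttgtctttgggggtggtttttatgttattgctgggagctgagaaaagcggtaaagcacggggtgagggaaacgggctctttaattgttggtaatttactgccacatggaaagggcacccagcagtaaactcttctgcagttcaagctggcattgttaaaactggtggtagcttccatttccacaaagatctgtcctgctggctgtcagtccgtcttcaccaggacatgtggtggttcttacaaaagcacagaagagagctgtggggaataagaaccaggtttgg

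**Figure D2:**
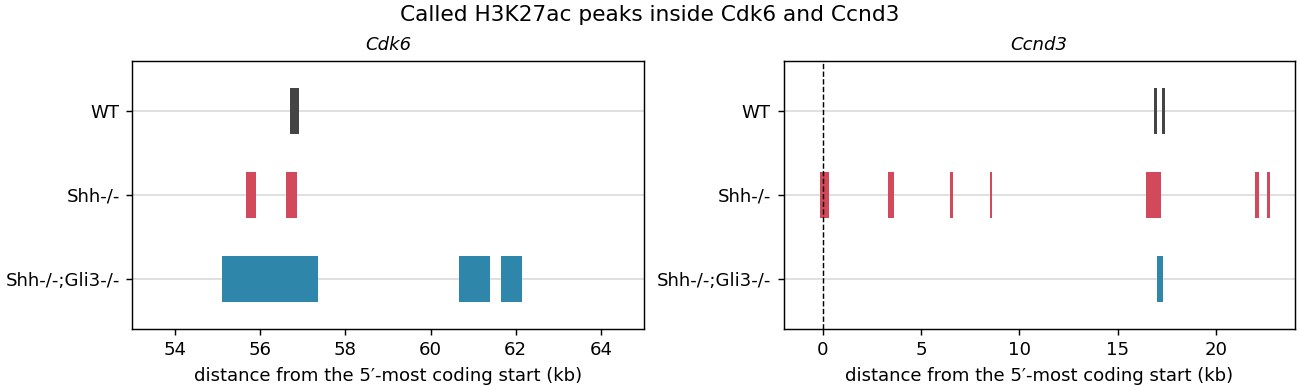
Bars are called peaks to scale inside Cdk6 and Ccnd3, 1 lane per list, with distance in kb from the gene's 5′-most coding start. In Cdk6 the Shh-/-;Gli3-/- lane holds peaks of 2250, 750 and 500 bp where the other lanes hold peaks of 250 bp or less, and in Ccnd3 the Shh-/- lane alone has a peak over the upstream start.

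Cyclin D1, the best known D-type cyclin, showed a narrower promoter in Shh-/- as well. The Ccnd1 promoter (start at chr7:144939869, minus strand) carried 4 WT peaks of 500 to 750 bp that summed to 2400 bp over a stretch of 3350 bp. The Shh-/- list held 2 of 250 and 300 bp, summing to 550 bp, and both lay upstream of the start. In Shh-/-;Gli3-/- there were 2 peaks of 1900 and 2000 bp, 3900 bp in all. Of the WT promoter bases, 22.9% were also covered in Shh-/- and 91.7% in Shh-/-;Gli3-/-, compared with 82.2% and 88.9% over all WT promoter peaks.

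Acetylation at Ccnd1 was not called in Shh-/- from the start into the gene, nor at the outermost WT promoter peak upstream, chr7:144941750-144942349 (log2 fold 3.11). The WT peak just downstream of the start, chr7:144939000-144939749 (log2 fold 3.41), and the WT peaks of 200 and 150 bp further into the gene had no Shh-/- counterpart, and in the double mutant 1 peak, chr7:144938050-144939949 (3.93), overlapped all 3. The Shh-/- to WT log2 ratio of promoter widths was -2.13, with 22 of 9310 genes lower. Within each list, the strongest promoter peak stood at 13.3% from the top in WT, 19.9% in Shh-/- and 15.0% in Shh-/-;Gli3-/-. An intergenic peak centred 3.03 to 3.33 kb upstream was present in all lists, at 850 bp in WT, 400 bp in Shh-/- and 1200 bp in Shh-/-;Gli3-/-, and its 300-base windows contained 1 or 2 E-boxes.

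**Figure D3:**
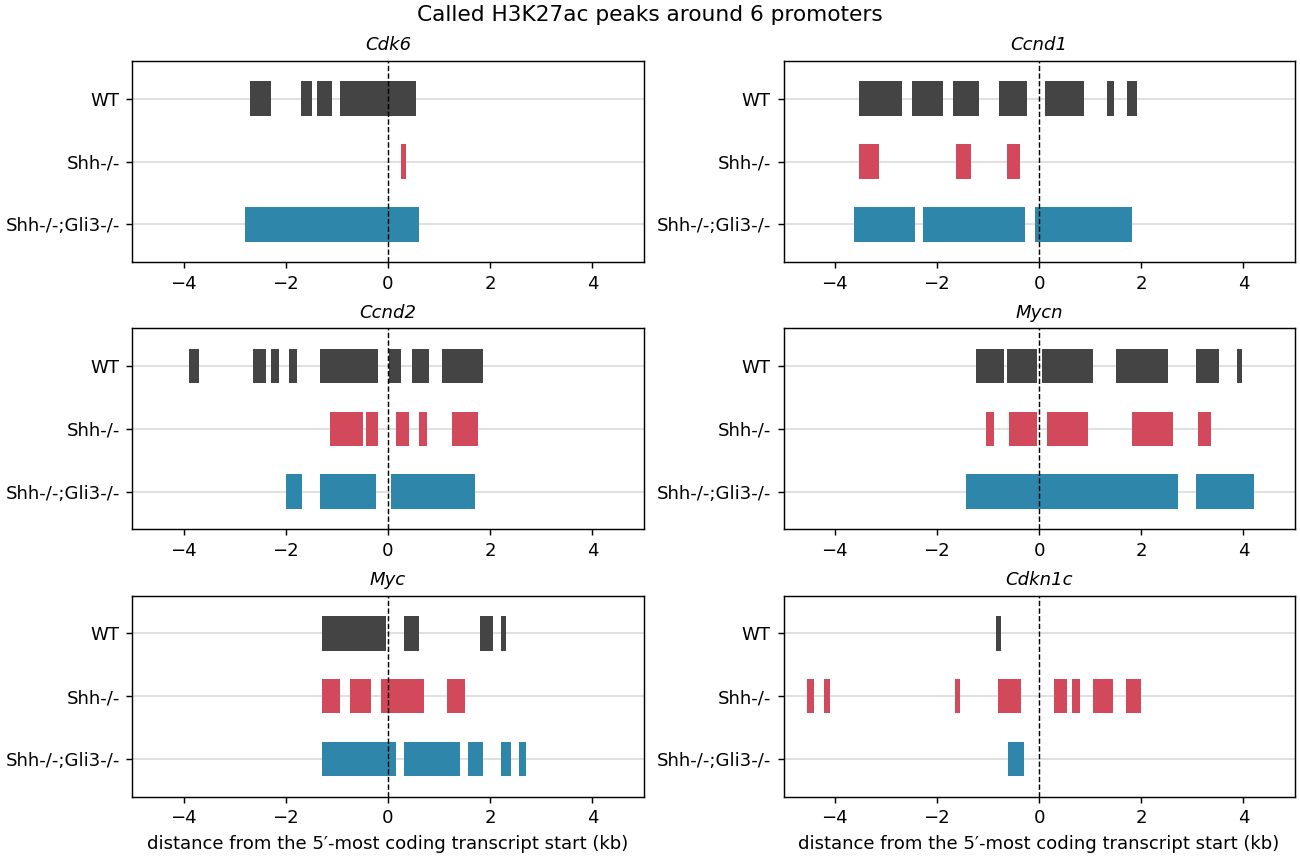
Bars are called peaks to scale within 5 kb of 6 promoters, 1 lane per list, with distance in kb from the 5′-most coding start (dashed line) and transcription to the right. The Shh-/- lane holds 1 short bar at Cdk6 and no bar downstream of the start at Ccnd1. At Mycn the Shh-/-;Gli3-/- lane has 1 promoter bar of 4150 bp where the other lanes have 4, beside a distal bar of 1150 bp.

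Cyclin D2 had the same order of widths with a smaller spread. Ccnd2 promoter peaks (starts at chr6:127151007 to 127151060, minus strand) summed to 1900 bp in WT, 1300 bp in Shh-/- and 3050 bp in Shh-/-;Gli3-/-. The strongest peak stood at 19.6% from the top in WT, 15.3% in Shh-/- and 13.4% in Shh-/-;Gli3-/-. Upstream of the promoter, WT peaks of 150, 250 and 200 bp, centred 2.21 to 3.79 kb before the start, were absent from both mutant lists. These peaks were weak, with log2 folds of 2.46 to 2.66.

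An intronic Ccnd2 element was found in all 3 lists. The WT peak chr6:127149200-127149999 (800 bp, log2 fold 3.27) was overlapped by a Shh-/- peak of 500 bp (3.33). In Shh-/-;Gli3-/- it merged into the promoter peak chr6:127149350-127150999, and the distal length of Ccnd2 was therefore 0 bp in that list although the region was acetylated. It was the strongest WT distal peak of these genes that overlapped peaks in both mutants. The whole WT peak lies in an intron of Ccnd2 and overlaps an exon of the antisense noncoding gene 9330179D12Rik. The 300 bases around its position of largest fold are chr6:127149675-127149974 (GRCm38.p6, plus strand). They held 60% G and C and none of the searched motifs.
Ccnd2 intron region: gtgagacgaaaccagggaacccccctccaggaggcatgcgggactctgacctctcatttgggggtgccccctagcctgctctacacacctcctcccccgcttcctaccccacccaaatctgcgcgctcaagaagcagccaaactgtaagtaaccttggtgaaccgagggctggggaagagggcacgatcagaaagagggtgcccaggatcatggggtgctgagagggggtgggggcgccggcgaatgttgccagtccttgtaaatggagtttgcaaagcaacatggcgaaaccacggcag

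Cyclin D3 went the other way from the other D-type cyclins in Shh-/-. Ccnd3 promoter peaks summed to 1400 bp in WT, 3550 bp in Shh-/- and 3300 bp in Shh-/-;Gli3-/-. At an FDR below 0.05 these widths were 1000, 3200 and 3300 bp. The annotation gives Ccnd3 an upstream group of starts (chr17:47505051 to 47505149, plus strand) and downstream starts at 47593470 and 47596068. At the upstream starts only the Shh-/- list held a peak, chr17:47504900-47505349 (450 bp, log2 fold 3.65). At the downstream starts all lists had peaks, and the strongest ranked 5260 of 25096 in WT, 3212 of 32085 in Shh-/- and 3311 of 34641 in Shh-/-;Gli3-/-. Between the promoters, distal peaks covered 300 bp in WT, 1800 bp in Shh-/- (7 peaks) and 400 bp in Shh-/-;Gli3-/-, and 5 of the Shh-/- peaks had no counterpart in WT or the double mutant. Of these 5 peaks, those starting at 47511500, 47513550 and 47527650 had FDRs of 0.177, 0.109 and 0.130 and do not pass 0.05. At an FDR below 0.05 the Shh-/- distal length fell to 1250 bp and the WT length to 150 bp.

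Mycn, a limb growth regulator, had the widest WT promoter acetylation of the 10 genes at 3150 bp. It had 2300 bp in Shh-/- and 4150 bp in Shh-/-;Gli3-/-. The 4 WT peaks of 550 to 1000 bp had 4 Shh-/- counterparts of 150 to 800 bp, and a single double mutant peak, chr12:12939200-12943349, took in all of them. That peak had a log2 fold of 5.01 and stood at 4.10% from the top of its list, compared with 15.6% for the strongest WT and 9.39% for the strongest Shh-/- peak. An intronic region centred 1.94 to 2.62 kb downstream of the nearest start gave 550 bp in WT, 250 bp in Shh-/- and 1150 bp in Shh-/-;Gli3-/-. Promoter and intron thus had the same order of lengths at these settings, with Shh-/- shortest. For the distal length of Mycn this order held with equal numbers of peaks and with an FDR cutoff of 0.05. With an FDR cutoff of 0.01 only the double mutant had any (1150 bp). Merging peaks closer than 500 bp joined the double mutant intron peak to its promoter peak and left 900, 250 and 0 bp. Promoter windows of 500 bp on either side gave 1100 bp in WT, 1200 bp in Shh-/- and 1150 bp in Shh-/-;Gli3-/-.

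The Mycn promoter is printed because its acetylation was the broadest of the 10 genes in WT and Shh-/-;Gli3-/-. It also carries sites for E2F, the factor released by cyclin D kinases. The window is chr12:12941787-12942086 on the minus strand (GRCm38.p6), and it lay within the double mutant peak.
Mycn promoter: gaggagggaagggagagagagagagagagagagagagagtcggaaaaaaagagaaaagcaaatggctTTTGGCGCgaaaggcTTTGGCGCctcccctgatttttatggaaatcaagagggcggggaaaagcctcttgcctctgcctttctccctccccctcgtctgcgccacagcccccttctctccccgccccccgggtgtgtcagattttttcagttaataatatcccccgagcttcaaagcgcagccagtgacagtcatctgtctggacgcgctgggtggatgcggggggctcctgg
Capitals mark 2 copies of the E2F motif TTTGGCGC, 183 and 168 bases before the start. These letters occur on either strand in 0.514% of all promoter windows.

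Myc, the related factor, had almost the same width in WT and Shh-/-, 1900 and 1950 bp, and 3200 bp in Shh-/-;Gli3-/-. This near equality depended on the setting. At an FDR below 0.01 the widths were 1250 bp in WT and 1950 bp in Shh-/-. With promoter windows of 500 bp on either side they were 1900 bp in WT and 1250 bp in Shh-/-. The peaks were arranged differently: the WT peak upstream of the first start was unbroken over 1250 bp (chr15:61984100-61985349, log2 fold 4.08), whereas in Shh-/- peaks of 350 and 400 bp lay within that stretch and one of 850 bp lay over the first starts, with folds of 2.83 to 3.24. The strongest Myc promoter peak ranked 2636 of 25096 in WT, 10896 of 32085 in Shh-/- and 7129 of 34641 in Shh-/-;Gli3-/-, and of the WT promoter bases 60.5% were also covered in Shh-/-. Myc had no distal peak within 20 kb in any list.

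Cyclin E1 and Cdk4 differed least among the lists. Ccne1 promoter peaks summed to 1250 bp in WT, 1500 bp in Shh-/- and 1650 bp in Shh-/-;Gli3-/-, and all WT promoter bases were covered in both mutants. Distal peaks at Ccne1 covered 300 bp in WT, 250 bp in Shh-/- and 500 bp in Shh-/-;Gli3-/-.

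Cdk4, the other partner of the D-type cyclins, had the strongest promoter peak of the 10 genes in WT and Shh-/-. It measured 1150 bp in WT (log2 fold 4.76, 3.57% from the top), 1400 bp in Shh-/- (5.23, 1.67%) and 1300 bp in Shh-/-;Gli3-/- (4.52, 7.99%). Another Shh-/- peak of 150 bp brought its sum there to 1550 bp. No distal peak was found at Cdk4, and the other peaks in its window lay at promoters of March9 and Tspan31. Its promoter, chr10:127063285-127063584 on the plus strand (GRCm38.p6), was chosen for printing after its letters were seen, for the 4 E-boxes in capitals at 172, 118, 98 and 11 bases before the start.
Cdk4 promoter: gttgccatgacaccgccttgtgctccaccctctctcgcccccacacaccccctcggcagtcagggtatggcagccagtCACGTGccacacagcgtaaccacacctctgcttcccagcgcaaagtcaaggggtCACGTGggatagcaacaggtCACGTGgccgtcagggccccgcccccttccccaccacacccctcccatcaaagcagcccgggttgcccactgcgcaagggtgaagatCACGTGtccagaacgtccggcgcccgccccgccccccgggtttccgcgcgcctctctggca

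The inhibitors Cdkn1a and Cdkn1c had little promoter acetylation in WT. Inhibitors outside the 10 genes ranged in WT from 0 bp (Cdkn2a and Cdkn2b) to 1250 bp (Cdkn1b). Cdkn1a, the target of p53 that encodes p21, had no peak in WT or Shh-/- within 20 kb of the gene, and in Shh-/-;Gli3-/- a single intronic peak of 100 bp, chr17:29095350-29095449, with a log2 fold of 2.07 and an FDR of 0.0880. Neither Cdkn1a promoter window of the RefSeq table was touched by a peak. The downstream one, chr17:29093519-29093818 on the plus strand (GRCm38.p6), is shown as the case without acetylation called. It has 64.7% G and C and 23 CG pairs, near the values of the acetylated Cdk6 promoter, and holds none of the searched motifs.
Cdkn1a promoter: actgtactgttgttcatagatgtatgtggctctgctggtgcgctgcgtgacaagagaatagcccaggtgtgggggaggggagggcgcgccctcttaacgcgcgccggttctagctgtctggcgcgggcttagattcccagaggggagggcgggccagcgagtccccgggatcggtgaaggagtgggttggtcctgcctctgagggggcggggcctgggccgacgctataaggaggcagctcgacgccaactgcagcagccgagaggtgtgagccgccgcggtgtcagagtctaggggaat

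Cdkn1c, an imprinted gene expressed from the maternal copy, encodes p57, and its promoter was widest in Shh-/-, the list in which that of Cdk6 was narrowest. Its promoter peaks (starts at chr7:143460996 and 143461050, minus strand) summed to 100 bp in WT, 1350 bp in Shh-/- and 300 bp in Shh-/-;Gli3-/-. The single WT peak was weak, with a log2 fold of 2.43 and an FDR of 0.0998. In Shh-/- there were 5 peaks, the strongest at chr7:143461400-143461849 (log2 fold 3.42, 28.0% from the top of the list), and the double mutant peak chr7:143461350-143461649 (3.04) overlapped that one. The Shh-/- to WT log2 ratio of 3.75 was exceeded by 0.0215% of 9310 genes. At an FDR below 0.05 the widths were 0, 850 and 300 bp.

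Further Cdkn1c peaks of 300, 100 and 150 bp, at the gene and 4.15 and 4.47 kb upstream, were called in Shh-/- only. A stronger intergenic region 22.9 kb downstream of the start had peaks of 1050 bp in Shh-/- (log2 fold 4.51) and 850 bp in Shh-/-;Gli3-/- (4.87) that reached into the 20 kb window. The WT list held a peak of 500 bp in the same place, chr7:143437800-143438299 (3.55), just outside the window and so not in the counts. Folds of different lists are relative to different inputs and are given side by side only.

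To see how the genes compared with others, promoter widths that differed by at least 1.5 times between lists were counted among the 9 genes with a promoter peak. From WT to Shh-/-, Cdk6 and Ccnd1 were narrower (2 of 9, against 9.59% of 10910 genes), and Ccnd3 and Cdkn1c were wider (2 of 9, against 33.4%). From WT to Shh-/-;Gli3-/-, Cdk6, Ccnd1, Ccnd2, Ccnd3, Myc and Cdkn1c were wider (6 of 9, against 36% of 10500 genes) and 0 were narrower (against 7.05%). Merging peaks closer than 500 bp left Cdk6, Ccnd3, Mycn, Myc and Cdkn1c wider (5 of 9, against 34.1%), and counting only bases inside the promoter windows left Ccnd3, Myc and Cdkn1c (3 of 9, against 34.6%). From Shh-/- to Shh-/-;Gli3-/-, Cdk6, Ccnd1, Ccnd2, Mycn and Myc were wider (5 of 9, against 20.3% of 11007 genes), and Cdkn1c was narrower (1 of 9, against 16.9%).

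The median log2 ratios of the 9 genes were 0.04 for Shh-/- to WT, 0.70 for Shh-/-;Gli3-/- to WT and 0.71 for Shh-/-;Gli3-/- to Shh-/-. The medians over all genes with peaks in both lists were 0.18, 0.32 and 0.15. Cdk6 and Ccnd1 were narrower in Shh-/- than in both other lists by at least 1.5 times, 2 of 9 against 5.98% of 11178 genes. The order Shh-/- below WT below Shh-/-;Gli3-/- held for Cdk6, Ccnd1, Ccnd2 and Mycn, 4 of 9 against 15.9%. After peaks of a list closer than 500 bp were merged, it held for Cdk6 and Mycn only (2 of 9, against 14.4%). Merged widths of Ccnd1 were 5450 bp in WT, 550 bp in Shh-/- and 5450 bp in Shh-/-;Gli3-/-, and those of Ccnd2 were 4500, 1900 and 3700 bp, so that Ccnd2 was then wider in WT than in the double mutant. With bases outside the promoter windows left out, the order held for the same 4 genes (against 15.6%). The 3 ratios share lists with each other, and these shares describe the lists and not a test.

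**Figure D4:**
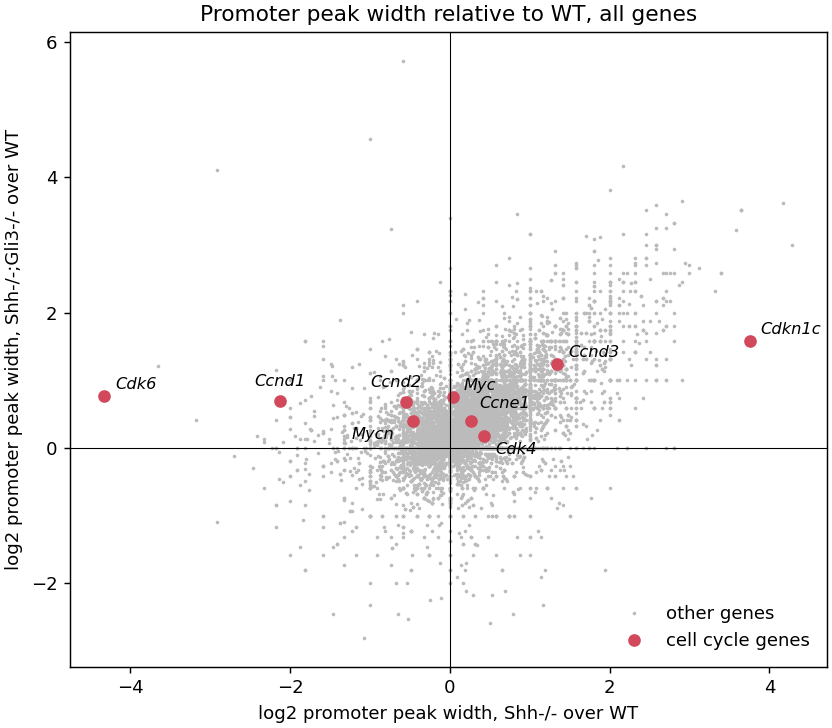
Each point is 1 of 9108 genes with a promoter peak in all 3 lists, with the log2 ratio of promoter widths of Shh-/- over WT on the horizontal and of Shh-/-;Gli3-/- over WT on the vertical axis, and the 9 cell cycle genes are in red. Cdk6 lies farthest left at -4.32 and Ccnd1 at -2.13, while Cdkn1c lies at 3.75 on the right.

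Because the mutant lists covered more of the genome, widths were also divided by the covered length of each list, which lowers every log2 ratio by 0.32 for Shh-/- to WT, 0.73 for Shh-/-;Gli3-/- to WT and 0.40 for Shh-/-;Gli3-/- to Shh-/-. On this scale Ccnd2 and Mycn joined Cdk6 and Ccnd1 as narrower in Shh-/- (4 of 9, against 18.3% of genes), and Ccnd3 and Cdkn1c stayed wider (2 of 9, against 23.4%). Of the genes wider in Shh-/-;Gli3-/- than in WT, only Cdkn1c was left (1 of 9, against 15.2%), and 0 were narrower (against 32.2%). Against Shh-/-, the double mutant was still wider at Cdk6, Ccnd1 and Ccnd2 (3 of 9, against 10.9%), and narrower at Cdkn1c and Cdk4 (2 of 9, against 28.5%). Except at Cdkn1c, the wider Shh-/-;Gli3-/- than WT promoters were thus not past 1.5 times once list length was taken into account. This scale can only lower ratios to WT, so Cdk6 and Ccnd1 could not lose their call in Shh-/- by it.

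Distal peaks of the 10 genes numbered 16 in WT, 18 in Shh-/- and 13 in Shh-/-;Gli3-/-, and covered 4.45, 4.56 and 7.16 kb. Their length was at least 1.5 times lower in Shh-/- than in WT at Ccnd1, Ccnd2 and Mycn (3 of 7 genes with a distal peak in either list, against 33.4% of 7837 genes) and higher at Ccnd3 and Cdkn1c (2 of 7, against 49.7%). In Shh-/-;Gli3-/- it was higher than in WT at Cdk6, Ccne1, Mycn, Cdkn1a and Cdkn1c (5 of 8, against 54.1% of 7546 genes) and lower at Ccnd2 (1 of 8, against 31.2%), where the promoter peak had taken in the intron. Against Shh-/-, it was higher at Cdk6, Ccne1, Ccnd1, Mycn and Cdkn1a (5 of 8, against 44% of 7716 genes) and lower at Ccnd2, Ccnd3 and Cdkn1c (3 of 8, against 37.1%). The Cdkn1a calls rest on a single peak of 100 bp with an FDR of 0.0880. The call of Cdkn1c as higher in Shh-/-;Gli3-/- than in WT rests on 161 bp at the window's edge. They belong to a peak whose WT counterpart lay just outside the window and was not counted. Divided by the covered length of each list, distal length was lower in Shh-/- than in WT also at Cdk6 and Ccne1 (5 of 7, against 36.7%) and higher at 2 of 7 (against 43.5%). On that scale Shh-/-;Gli3-/- was higher than WT at Cdk6, Cdkn1a and Cdkn1c (3 of 8, against 42.1%) and lower at 2 of 8 (against 39.1%). The double mutant was higher than Shh-/- at 5 of 8 (against 38.1%) and lower at 3 of 8 (against 42.4%). None of these counts is read as particular to the cell cycle genes.

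**Figure D5:**
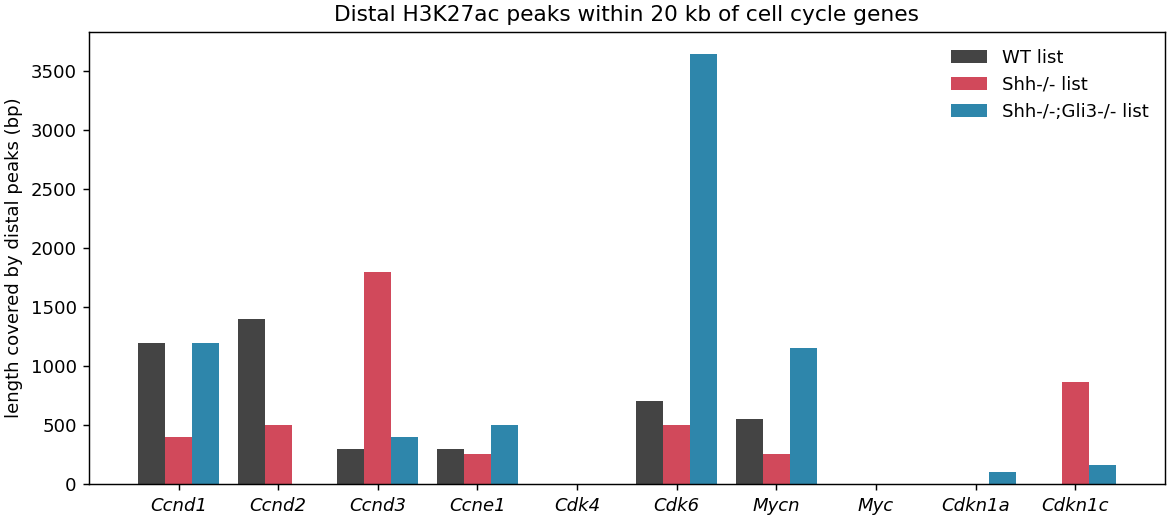
Bars give the length in bp covered by distal peaks in each gene's window in the WT, Shh-/- and Shh-/-;Gli3-/- lists, 1 value per list with no error. The Shh-/-;Gli3-/- bar at Cdk6 (3650 bp) is the tallest, the Shh-/- bar is the tallest at Ccnd3 (1800 bp) and Cdkn1c (861 bp), and Cdk4 and Myc have none.

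Position by position, peaks of the Shh-/- list met 5 of the 16 WT distal peaks of these genes (31.25%, 95% Wilson interval 14.2 to 55.6%), against 39% of all WT distal peaks. Those of the double mutant met 10 of the 16 (62.5%, 38.6 to 81.5%), against 52.4%. Of 26 WT promoter peaks, 19 were met in Shh-/- (73.1%, 53.9 to 86.3%), against 84.7% of all WT promoter peaks, and 25 in the double mutant (96.2%, 81.1 to 99.3%), against 86.8%. The intervals cover counting error over peaks only, and each includes the share over all peaks.

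The motif for GLI factors (GACCACCCA) was searched on both strands, with the E-box, the E2F motifs TTTGGCGC and TTTCCCGC, and TATAAA. Promoter windows were found for 6 of the 10 genes, and Ccnd1, Ccnd2, Myc and Cdkn1c had no entry. None of the windows found held GACCACCCA, and neither did the 300-base windows on the 16 WT, 18 Shh-/- and 13 Shh-/-;Gli3-/- distal peaks. The letters are rare in such windows, at 0.253% of all promoter windows and 0.360%, 0.218% and 0.218% of windows on all distal peaks of the 3 lists, so their absence from these few windows says only that they are not there. An E-box was present in 3 of 16 WT, 2 of 18 Shh-/- and 1 of 13 Shh-/-;Gli3-/- distal windows, against 4.59%, 4.51% and 4.11% of all.

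Other genes of the cell cycle were examined for comparison. Among 50 further genes, including cyclins A, B and E2, E2F factors, replication licensing factors and checkpoint genes, 48 had a promoter peak in WT, 46 in Shh-/- and 45 in Shh-/-;Gli3-/-. Over all genes with a WT promoter peak, 96.2% had one in Shh-/- and 96.1% in Shh-/-;Gli3-/-. The inhibitors Cdkn2a and Cdkn2b had none in any list. Cdkn2c, another CDK4 and CDK6 inhibitor, had 150 bp in WT, 350 bp in Shh-/- and 0 bp in Shh-/-;Gli3-/-, while the phosphatase gene Cdc25b (250 bp) and Ccng1 (300 bp) had a promoter peak in WT only. In width, 6 of 48 were narrower and 4 wider in Shh-/- than in WT (against 9.59% and 33.4% of all genes), and 7 were wider and 5 narrower in Shh-/-;Gli3-/- than in WT (against 36% and 7.05%). From Shh-/- to Shh-/-;Gli3-/-, 8 of 46 were wider and 3 narrower (against 20.3% and 16.9%). Cdk7, Cdkn2d and Rbl2 were narrower in Shh-/- than in both other lists by at least 1.5 times (3 of 48), a share near the 5.98% of all genes. Cdkn2d, the gene for the inhibitor p19, had 1050 bp in WT, 300 bp in Shh-/- and 850 bp in Shh-/-;Gli3-/-. Cdkn1b, a further inhibitor gene, had 1250 bp in WT and 950 bp in each mutant list.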

How the data were processed

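H3K27ac MicroChIP-seq libraries were made from forelimb buds with 12 PCR cycles per the labels. The study called peaks with CisGenome, coordinates refer to mm10, and Bowtie2 2.2.5 is listed in the submitters' processing notes, where its role is not given. The authors deposited 1 list per genotype, attached by the labels to the first replicate, while the study describes peaks called from 2 replicates. Neither read depth nor input reads were used here, so intervals cover counting error over peaks only. Each deposited row gives start and end in steps of 50 bp, a score by which the authors ranked peaks, a log2 fold over input, a −log10 Poisson p-value that stops at 100, and an FDR (q-value) that reached 0.350 in WT, 0.186 in Shh-/- and 0.109 in Shh-/-;Gli3-/-. The lists do not state whether positions count from 0 or 1, and coordinates are printed as given.

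Genes came from the GENCODE M21 basic set. Promoter windows reached 2 kb upstream and 1 kb downstream of coding transcript starts, distal peaks touched no such window, and lengths were clipped to the 20 kb window. Overlap meant at least 1 bp. Widths were called different from 1.5 times. Background shares of widths were taken over all genes covered in either list compared. Motifs were read from GRCm38.p6 and RefSeq promoter windows. Python 3.11.15, numpy 2.4.6, pandas 2.3.3 and scipy 1.17.1 were used. The width calls were run on a copy of the WT list with planted losses and narrowings. That copy held no noise, so it checks only that calls were computed as defined and not the differences between lists. No p-values were computed, since each genotype has 1 list. Distal regions were printed by a rule of highest fold within each pattern of presence, of which 1 region is not reported here, and all 10 genes are described. Other cell cycle genes are named where a promoter peak was missing from a list, or, chosen after their values were seen, where Shh-/- was narrowest. Cdkn1b is named in addition, as an inhibitor. The genes and lists were chosen with earlier results of these data known. In all, 11 alternative settings were tried.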

Additional observations from a re-analysis of the deposited data

How the results depend on the processing

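Of 131 values for 20 counts and shares recomputed under 10 planned settings and 1 added after seeing the data, 101 stayed within 1.5 times of the reported count or, for a share, within its 95% interval, and 30 did not. Merging peaks was likewise applied to promoter widths only after the data were seen. No paired analysis was possible because the lists carry no values for single replicates, and for the same reason no replicate could be left out. The number of members with a promoter peak moved by no more than that in any list. At an FDR below 0.01 the distal peaks were 6 in WT, 9 in Shh-/- and 6 in Shh-/-;Gli3-/-, at an FDR below 0.05 they were 10 in WT and 11 in Shh-/-, with promoter windows of 500 bp on either side 26 in WT and 31 in Shh-/-, and after merging peaks closer than 500 bp 7 in WT and 8 in Shh-/-;Gli3-/-. The Shh-/-;Gli3-/- count was 21 within 50 kb and 7 with equal numbers of peaks. Dividing by list length gave, for promoters, 4 genes narrower in Shh-/- than in WT, 1 wider in Shh-/-;Gli3-/- than in WT, and 3 wider and 2 narrower in Shh-/-;Gli3-/- than in Shh-/-. For distal length it gave 5 lower in Shh-/-, and 3 higher and 2 lower in Shh-/-;Gli3-/-, each against WT. With the 500 bp windows, 5 promoters were narrower in Shh-/- than in WT, and distal length was higher in Shh-/- at 4 and lower in Shh-/-;Gli3-/- at 2 genes than in WT. Counting only bases inside promoter windows left 3 genes wider in Shh-/-;Gli3-/- than in WT. At an FDR below 0.01, distal length in Shh-/-;Gli3-/- was higher at 3 genes than in Shh-/-, and higher at 3 and lower at 2 than in WT. With equal numbers of peaks these were 3, 3 and 3. The share of WT distal peaks overlapped in Shh-/-;Gli3-/- was 83.3% at an FDR below 0.01 and 87.5% when peaks no farther apart than 500 bp counted as overlapping. The share in Shh-/- was 50% at an FDR below 0.05, inside the wide interval of the reported value. The cause of these shifts was not tested beyond what each setting leaves out.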
